A study of Equus caballus with 15 samples.

Results

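Interferon stimulated genes are the genes that cells switch on when an interferon binds its receptor, and a list of 54 symbols of such genes was followed here in equine macrophages across 5 conditions. DDX58 and RIGI are names of the same gene, so the list stood for 53 genes. Matching by gene symbol found 49 of them among the 16932 genes measured, and MX2, IFIT1, CXCL9 and LGALS9 were not analysed here. All 49 had a mean of at least 1 CPM (the reads of the gene scaled to the reads of the library) over the 15 libraries and were tested.

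Type I interferons bind a receptor made of IFNAR1 and IFNAR2, whose kinases JAK1 and TYK2 phosphorylate STAT2, part of the factor that, with IRF9, turns on interferon response elements in promoters. The proteins made in this way block viral replication, sense foreign nucleic acid, attach ISG15 to other proteins, or attract lymphocytes as chemokines. Macrophages are known both as producers of type I interferon, through the Toll-like and RIG-I-like receptors and the factors IRF3 and IRF7, and as cells that keep many interferon stimulated genes on at a low level.

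Macrophages were grown with human M-CSF (30 ng/ml) from blood mononuclear cells of 2 horses, and the labels do not say which horse each library came from. Untreated macrophages received no IL-1ß, and the other 4 groups received IL-1ß at 10 ng/ml, an inflammatory cytokine of the osteoarthritic joint. In 3 of these groups an orthobiologic therapy (OT) made up 25% of the medium during the same 24 h. The OTs were autologous conditioned serum (ACS, labelled IRAP in the sample titles), medium conditioned by mesenchymal stromal cells (MSC-CM), and lysed platelets of platelet rich plasma (PRP lysate). Each group had 3 libraries. An OT was made from 3 donor horses, so its libraries replicate the product, whereas the study describes the untreated and the IL-1ß libraries as technical replicates, and p-values therefore measure only the spread between these libraries. Sources differ on whether the cells were cultured further between the wash that ended treatment and lysis.

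Depth ran from 28410735 to 47894069 reads on genes per library. The first principal component of all tested genes held 55.4% of the variance, and 3 libraries lay at its negative end, namely IL-1ß replicate 3 (-103), PRP lysate replicate 1 (-51.7) and MSC-CM replicate 1 (-20.7). In these 3 libraries genes with a longer span in the genome were lower, with slopes of -0.165, -0.100 and -0.0415 log2 per doubling of span, so the count of the 49 genes called in each comparison is also given without them. The macrophage markers CD68, CSF1R and TYROBP were expressed, but CD14 lay between 1.38 and 4.32 CPM in all libraries. All 6 T cell markers on the list were also expressed, with a summed level of 595 to 885 CPM in the untreated group, 831 to 1652 with IL-1ß, 1170 to 1259 with MSC-CM, 747 to 1696 with PRP lysate and 719 to 921 with ACS. In such bulk RNA a smaller number of cells of one type and less RNA per cell cannot be told apart.

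A gene was called at a Benjamini-Hochberg adjusted p of at most 0.05 over 11628 genes together with a difference of 2-fold or more, in limma on log2(CPM + 1). With PRP lysate 9 of the 49 genes were called lower than with IL-1ß alone and 0 higher, where 2.02% of all genes tested were called lower, 1.07% higher and 3.09% in either direction. They were OAS1, OAS2, OAS3, MX1, IFIT3, CMPK2, IFI27, ZBP1 and CXCL11. The IL-1ß and PRP lysate libraries did not overlap for 18 of the 49 genes, all of them lower with PRP lysate, against 6.47% of all genes tested. By the same measure 16 genes were lower and 1 was higher with ACS, and 5 were lower with MSC-CM. Shares of all genes are not given for these 2 OTs. Without the 3 libraries named above, 6 genes were called lower (OAS1, OAS2, OAS3, IFIT3, ZBP1 and CXCL11) and ISG20 was called higher. No share of all genes is given for this fit or for the fits that follow. Fitted on the IL-1ß and PRP lysate libraries alone, without the other 9 libraries in the estimate of the spread, limma called 0 of the 9 genes (adjusted p = 0.119 for OAS1). Leaving out a single library from the IL-1ß group lowered the count to 5 (replicate 1) and 3 (replicate 2), and from the PRP lysate group to 5 (replicate 1) and 4 (replicate 2).

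With MSC-CM, 0 of the 49 genes were called against IL-1ß alone by limma, by edgeR or by DESeq2, where limma called 0.0% of all genes, and limma also called 0 without the 3 libraries that lay apart. At an unadjusted p of at most 0.05, 3 of them were lower (CXCL10, CXCL11 and OASL), where 0.697% of all genes were lower at that threshold. With ACS, limma likewise called 0 of the 49 genes, where 2.21% of all genes were called in either direction. OAS1 passed the adjusted p alone, 11 genes passed the unadjusted p and were lower (8.38% of all genes tested), edgeR called 1 gene (OAS1) and DESeq2 called 3 (OAS1, ZBP1 and IFI27). Without the 3 libraries that lay apart limma called CXCL11 lower with ACS, and without IL-1ß replicate 1 alone it called ZBP1 and IFI27. Between IL-1ß and untreated macrophages 1 of the 49 genes was called, CXCL10, which was lower with IL-1ß, where 0.155% of all genes were called lower and 0.292% in either direction. Without the 3 libraries that lay apart 2 were called lower, CXCL10 and CXCL11.

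The median log2 fold change against IL-1ß alone over the 49 genes was -0.35 with PRP lysate, -0.19 with ACS and -0.07 with MSC-CM. All 11628 genes had medians of 0.11, 0.13 and 0.16 in the same comparisons. Scaling by RLE size factors, which level the typical gene across libraries by construction, gave 0.024, 0.017 and 0.0020. The size factor was 0.803 for IL-1ß replicate 3, against 1.03 and 1.00 for IL-1ß replicates 1 and 2. After the same scaling the medians over the 49 genes were -0.44 with PRP lysate, -0.32 with ACS and -0.25 with MSC-CM. Without that scaling, 43 of the 49 genes lay below the median of all genes with PRP lysate, 34 with ACS and 34 with MSC-CM. These 3 comparisons share the IL-1ß libraries. IL-1ß against untreated macrophages gave a median of 0.04 over the 49 genes and -0.07 over all genes.

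**Figure D1:**
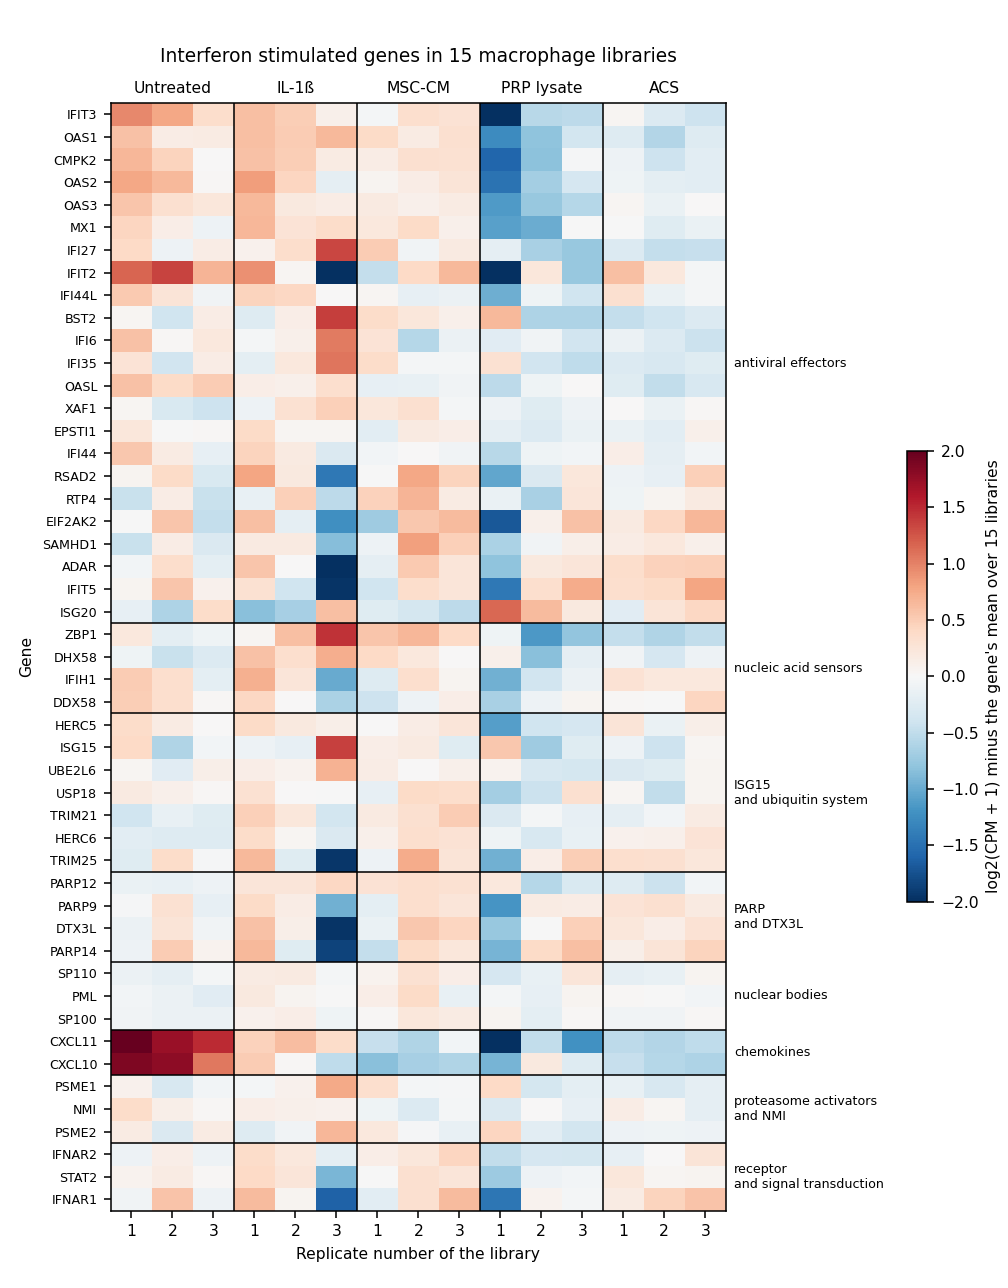
Level of the 49 interferon stimulated genes (rows) in the 15 libraries (columns, 3 per condition), as log2(CPM + 1) minus the mean of the gene over all libraries. Colours are held at 2 above and 2 below that mean. Rows are grouped by role and, within a role, sorted by the log2 fold change of PRP lysate against IL-1ß, lowest at the top. The place of blue cells near the top of each role in the PRP lysate columns therefore follows from the sorting. IL-1ß replicate 3 and PRP lysate replicate 1 differ from the other 2 libraries of their conditions in many rows.

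The antiviral effectors, proteins that act on viral RNA, proteins or membranes, held 7 of the 9 genes that fell with PRP lysate. Of 23 genes in this group, 20 had a log2 fold change below 0 against IL-1ß alone, with a median of -0.56 and a range from -1.46 to 0.96. With ACS the 23 genes had a median of -0.27 and 15 were below 0, and with MSC-CM the median was -0.15 and 16 were below 0.

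Oligoadenylate synthetases make the messenger that activates RNase L, which cuts viral and cellular RNA. OAS1 stood at 59.2, 55.5 and 61.4 CPM in the IL-1ß libraries and at 15.7, 21.6 and 29.7 CPM with PRP lysate. The highest PRP lysate library was thus well below the lowest IL-1ß library, and the mean with PRP lysate was 38.1% of that with IL-1ß. The log2 fold change was -1.40 (SE 0.205, adjusted p = 0.00138), and OAS1 was called in all 6 fits that left out 1 of these libraries (-1.62 to -1.18), though not with the 2 groups fitted alone. With ACS, OAS1 lay at 32.3, 25.4 and 32.1 CPM, again below all IL-1ß libraries, and passed the adjusted p with a change just under 2-fold (-0.96, SE 0.205, adjusted p = 0.0234). MSC-CM gave 50.7, 43.5 and 48.6 CPM and untreated macrophages 58.6, 43.0 and 43.5 CPM, and these ranges overlapped. The order of the means was IL-1ß, untreated, MSC-CM, ACS and PRP lysate, in which IL-1ß and untreated overlapped, as did untreated and MSC-CM, and ACS and PRP lysate. OAS1 also fell with PRP lysate against untreated macrophages (-1.11, SE 0.205, adjusted p = 0.0112). That call was lost without untreated replicate 1 or PRP lysate replicate 1, over a range of -1.33 to -0.89 in the fits with 1 library left out.

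OAS3 lay at 339, 249 and 241 CPM with IL-1ß and at 98.0, 128 and 146 CPM with PRP lysate, so that all PRP lysate libraries were far below. It fell by 1.15 on the log2 scale (SE 0.164, adjusted p = 0.00110), and the call was lost without IL-1ß replicate 1 or PRP lysate replicate 1 (-1.28 to -0.99 over the 6 fits). Against untreated macrophages (318, 272 and 252 CPM) OAS3 fell by 1.18 (SE 0.164, adjusted p = 0.00166) and was called in all 6 such fits. ACS left OAS3 at 222, 197 and 218 CPM and MSC-CM at 244, 233 and 244 CPM, with neither called. ACS was above PRP lysate in every library, at a log2 difference of 0.79 that did not pass the adjustment (SE 0.164, adjusted p = 0.105).

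OAS2 was more variable, at 185, 139 and 90.5 CPM with IL-1ß and 36.3, 64.1 and 81.7 CPM with PRP lysate. The groups did not overlap, although the highest PRP lysate library came close to the lowest IL-1ß library, which was one of those that lay apart. OAS2 fell by 1.19 (SE 0.298, adjusted p = 0.0363), a call lost without IL-1ß replicate 1 or 2 or PRP lysate replicate 1 or 2 (-1.46 to -0.86). The call was also lost without the filter on mean CPM. Untreated macrophages had 177, 161 and 104 CPM, from which PRP lysate was lower by 1.31 on the log2 scale (SE 0.298, adjusted p = 0.0352), a call lost without untreated replicate 1 or 2 or PRP lysate replicate 1 or 2 (-1.55 to -0.98). OAS2 was at 97.0, 90.0 and 88.8 CPM with ACS and at 107, 115 and 123 CPM with MSC-CM, inside the IL-1ß range except for 2 of the ACS libraries just below it.

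OAS1, OAS2 and OAS3 lie side by side on chromosome 8 of EquCab3.0 (OAS2 from 21902842 to 21926534, OAS3 from 21934700 to 21954277 and OAS1 from 21960902 to 21978743), and all 3 fell with PRP lysate. The annotated span of OAS1 overlaps another listed gene. How reads in the overlap were assigned is not stated, so its count could be affected. OASL, a related protein without synthetase activity that enhances RIG-I signalling, lies elsewhere on the chromosome (15623084 to 15639857). It stood at 154, 150.1 and 177 CPM with IL-1ß, 97.1, 132 and 142 CPM with PRP lysate, 118, 99.5 and 113 CPM with ACS, and 126, 126 and 134 CPM with MSC-CM. The libraries of each OT lay below all IL-1ß libraries, and none of the 3 differences passed the adjustment (-0.39, adjusted p = 0.161 with PRP lysate; -0.54, adjusted p = 0.0604 with ACS; -0.31, adjusted p = 0.705 with MSC-CM). Against untreated macrophages, at 212, 183 and 199 CPM, OASL passed the adjusted p below 2-fold with each OT (-0.69, -0.84 and -0.62, with adjusted p = 0.0209, 0.0229 and 0.0467).

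MX1 encodes a GTPase that traps viral ribonucleoproteins. Its level was 188, 143 and 153 CPM with IL-1ß and 55.2, 58.5 and 117 CPM with PRP lysate. PRP lysate replicate 3 stood well above replicates 1 and 2 and still below every IL-1ß library. MX1 fell by 1.13 (SE 0.243, adjusted p = 0.0164), a call lost without PRP lysate replicate 1 or 2 (-1.48 to -0.94 over the 6 fits) and without the 3 libraries that lay apart. ACS gave 117, 99.7 and 107 CPM (-0.57, SE 0.243, adjusted p = 0.217), MSC-CM 136, 154 and 126 CPM (-0.21, SE 0.243, adjusted p = 0.754), and untreated macrophages 159, 130.0 and 109.9 CPM. The annotated span of MX1 (chromosome 26, 38283474 to 38366811) overlaps TMPRSS2. How reads in the overlap were assigned is not stated, so the count of MX1 could be affected.

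The IFIT proteins bind RNA that lacks the marks of a host message. IFIT3, which stabilises the complex, lay at 104, 95.7 and 72.8 CPM with IL-1ß and at 14.9, 45.7 and 47.2 CPM with PRP lysate. All PRP lysate libraries were lower, and replicate 1, one of the libraries apart, was lower by far than the other 2. IFIT3 fell by 1.46 (SE 0.349, adjusted p = 0.0283), a call lost without IL-1ß replicate 1 or 2 or PRP lysate replicate 1 (-1.74 to -0.94). It also fell against untreated macrophages (133, 117 and 86.8 CPM), by 1.76 (SE 0.349, adjusted p = 0.0163), a call lost without untreated replicate 1 or 2 (-2.04 to -1.24). With ACS it was at 70.0, 55.9 and 50.6 CPM, below each IL-1ß library, at -0.62 (SE 0.349, adjusted p = 0.293) against IL-1ß and -0.91 (adjusted p = 0.461) against untreated macrophages. MSC-CM gave 66.2, 86.2 and 83.0 CPM, which overlapped IL-1ß (-0.20, adjusted p = 0.834).

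The neighbours of IFIT3 on chromosome 1 (39322733 to 39338932) did not pass the test. IFIT2, 6.67 kb away, ranged from 13.9 to 110.0 CPM within the IL-1ß group and from 6.66 to 67.9 CPM with PRP lysate, with the lowest value of each group in the library that lay apart. IFIT5 was at 10.0, 5.74 and 1.28 CPM with IL-1ß and 2.31, 10.2 and 13.9 CPM with PRP lysate, so the groups overlapped widely (0.57, SE 0.567, adjusted p = 0.648).

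CMPK2, a mitochondrial nucleotide kinase, and RSAD2, which encodes viperin and makes a chain-terminating nucleotide, are adjacent on chromosome 15 with 5.92 kb between them. CMPK2 was at 26.2, 24.6 and 19.4 CPM with IL-1ß and 5.08, 9.28 and 16.8 CPM with PRP lysate, with no overlap. It fell by 1.23 (SE 0.307, adjusted p = 0.0363), a call lost without IL-1ß replicate 1 or 2 or PRP lysate replicate 1 or 2 (-1.62 to -0.84). The call was also lost without the 3 libraries apart and without the filter on mean CPM. RSAD2 was at 15.3, 9.86 and 2.52 CPM with IL-1ß and 3.63, 6.72 and 10.1 CPM with PRP lysate, which overlapped, and gave a log2 fold change of -0.22 (SE 0.482, adjusted p = 0.844). RSAD2 was 8.47, 15.2 and 11.9 CPM with MSC-CM, 7.80, 7.43 and 12.1 CPM with ACS and 8.81, 11.4 and 6.64 CPM in untreated macrophages, so no condition stood apart. ACS left CMPK2 at 15.9, 12.6 and 14.7 CPM, below every IL-1ß library (-0.66, SE 0.307, adjusted p = 0.245).

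IFI27, a small mitochondrial and nuclear membrane protein, was at 605, 721 and 1431 CPM with IL-1ß and 498, 362 and 334 CPM with PRP lysate. The groups did not overlap, and the highest IL-1ß value came from replicate 3. IFI27 fell by 1.12 (SE 0.275, adjusted p = 0.0330), a call lost without IL-1ß replicate 2 or 3 or PRP lysate replicate 2 or 3 (-1.37 to -0.75). The call was also lost without the 3 libraries apart, without the filter on mean CPM and with RLE size factors. With ACS it was at 468, 408 and 409.5 CPM, also below all IL-1ß libraries (-0.997, SE 0.275, adjusted p = 0.0697), and with MSC-CM it was at 803, 538 and 641 CPM. Untreated macrophages had 745, 528 and 625 CPM.

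**Figure D2:**
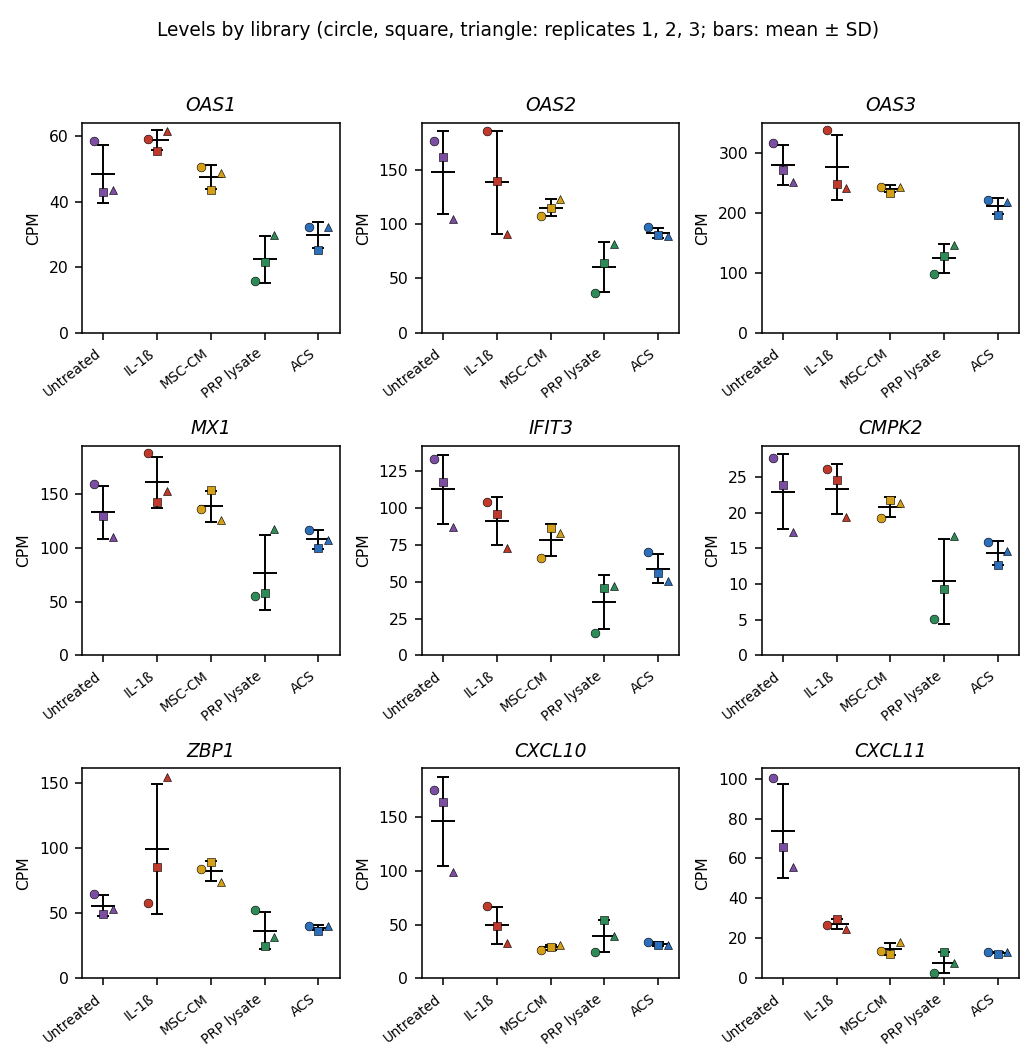
CPM of 9 interferon stimulated genes in each of the 3 libraries of each condition (symbols), with the mean and 1 SD (bars). The PRP lysate libraries lie below all IL-1ß libraries for OAS1, OAS2, OAS3, MX1, IFIT3, CMPK2, ZBP1 and CXCL11 and overlap them for CXCL10, and the untreated libraries are the highest for both chemokines.

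The other 16 antiviral effectors were not called with any OT against IL-1ß alone. Among them IFI44L (-0.77, adjusted p = 0.0776) and IFI6 (-0.59, adjusted p = 0.283) were lower with PRP lysate in every library. BST2, the membrane tether of budding virions, was at 56.0, 74.0 and 177 CPM with IL-1ß and 106, 43.5 and 43.6 CPM with PRP lysate, where replicate 3 of the first and replicate 1 of the second stood far above their groups. ISG20, an exonuclease, went the other way, at 31.8, 35.7 and 87.4 CPM with IL-1ß and 128, 89.0 and 65.6 CPM with PRP lysate. Its groups overlapped only through IL-1ß replicate 3, and its log2 fold change of 0.96 (SE 0.366, adjusted p = 0.179) passed once the 3 libraries apart were left out. ADAR, which edits adenosines in double-stranded RNA, stood at 221, 150.0 and 32.7 CPM with IL-1ß, the lowest in replicate 3, while with ACS it was at 190.5, 207 and 208 CPM. RTP4 was low everywhere, with 1.71, 3.08 and 1.71 CPM in untreated macrophages against 4.10, 4.91 and 3.14 CPM with MSC-CM (0.68, SE 0.291, adjusted p = 0.264), and the log2(CPM + 1) scale understates such a difference.

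Of the 4 sensors of nucleic acid, ZBP1 fell with PRP lysate. ZBP1 binds left-handed double-stranded nucleic acid and can start necroptosis. It was at 57.5, 85.7 and 155 CPM with IL-1ß, 52.7, 24.8 and 32.0 CPM with PRP lysate, and 40.0, 36.5 and 39.9 CPM with ACS. No library of either OT reached the IL-1ß range, whose highest value was that of replicate 3. The log2 fold change was -1.37 with PRP lysate (SE 0.311, adjusted p = 0.0214), a call lost without IL-1ß replicate 2 or 3 or PRP lysate replicate 2 or 3 (-1.70 to -0.99) but made without the 3 libraries apart. With ACS the value was -1.22 (SE 0.311, adjusted p = 0.0513), just outside the threshold. MSC-CM left ZBP1 at 83.5, 89.3 and 74.2 CPM, above all libraries of untreated macrophages (64.9, 49.2 and 52.9 CPM).

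DHX58 encodes LGP2, the regulator of the other RIG-I-like receptors. It was at 27.6, 21.2 and 24.0 CPM in untreated macrophages, 44.2, 37.1 and 49.1 CPM with IL-1ß, 38.7, 33.9 and 29.3 CPM with MSC-CM, 31.4, 16.0 and 25.6 CPM with PRP lysate, and 27.8, 22.9 and 27.1 CPM with ACS. All IL-1ß libraries were above all untreated ones, though the difference did not pass the adjustment (0.81, SE 0.219, adjusted p = 0.147). PRP lysate was below IL-1ß in every library and passed the adjusted p below 2-fold (-0.85, SE 0.219, adjusted p = 0.0407), and ACS was lower without passing (-0.72, SE 0.219, adjusted p = 0.0979). The sensors themselves, IFIH1 (MDA5) and DDX58 (RIG-I), overlapped between IL-1ß and PRP lysate, at -0.47 (adjusted p = 0.555) and -0.16 (adjusted p = 0.786).

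The 7 genes of the ISG15 and ubiquitin system were not called against IL-1ß alone with any OT. ISG15, the ubiquitin-like modifier itself, was at 31.5, 30.4 and 89.2 CPM with IL-1ß, 49.7, 20.4 and 28.4 CPM with PRP lysate, 31.7, 25.4 and 34.8 CPM with ACS, 37.3, 38.4 and 28.5 CPM with MSC-CM, and 45.3, 22.0 and 32.7 CPM in untreated macrophages. Every condition overlapped every other, and IL-1ß replicate 3 alone was above 50 CPM. The log2 fold changes against IL-1ß were -0.51 with PRP lysate (SE 0.406, adjusted p = 0.573), -0.53 with ACS (adjusted p = 0.400) and -0.35 with MSC-CM (adjusted p = 0.756). HERC5, the ligase that attaches ISG15, was at 27.3, 23.7 and 22.5 CPM with IL-1ß and 9.11, 15.4 and 16.1 CPM with PRP lysate. HERC5 passed the adjusted p below 2-fold (-0.85, SE 0.203, adjusted p = 0.0297), whereas its neighbour HERC6, 4.11 kb away on chromosome 3, had overlapping groups (-0.23, SE 0.150, adjusted p = 0.474). HERC5 was higher with ACS (24.9, 18.7 and 22.5 CPM) than with PRP lysate in every library, without passing the adjustment (0.69, SE 0.203, adjusted p = 0.433). USP18, which removes ISG15 and silences the receptor, overlapped between IL-1ß and PRP lysate (-0.37, adjusted p = 0.520), and so did UBE2L6, TRIM21 and TRIM25.

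Among PARP12, PARP9, PARP14 and DTX3L, ADP-ribosylation enzymes and their partner, no gene was called against IL-1ß alone. PARP12 was at 122, 123 and 139 CPM with IL-1ß, above the 94.1, 93.6 and 96.1 CPM of untreated macrophages (0.43, SE 0.170, adjusted p = 0.305). PARP12 was at 120.1, 69.4 and 83.4 CPM with PRP lysate and 86.2, 76.6 and 100.0 CPM with ACS, all below the IL-1ß libraries (-0.52, adjusted p = 0.107; -0.55, adjusted p = 0.102). The bidirectional neighbours DTX3L and PARP9 on chromosome 19 had values of 0.32 and -0.15 with PRP lysate, with overlapping groups. The 3 genes of nuclear bodies, PML, SP100 and SP110, hardly varied, with log2 fold changes between -0.18 and -0.08 with PRP lysate and between -0.19 and -0.08 with ACS. The proteasome activator subunits PSME1 and PSME2 and the interferon-induced protein NMI lay between -0.31 and -0.17 with PRP lysate, and none was called in any comparison against IL-1ß.

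**Figure D3:**
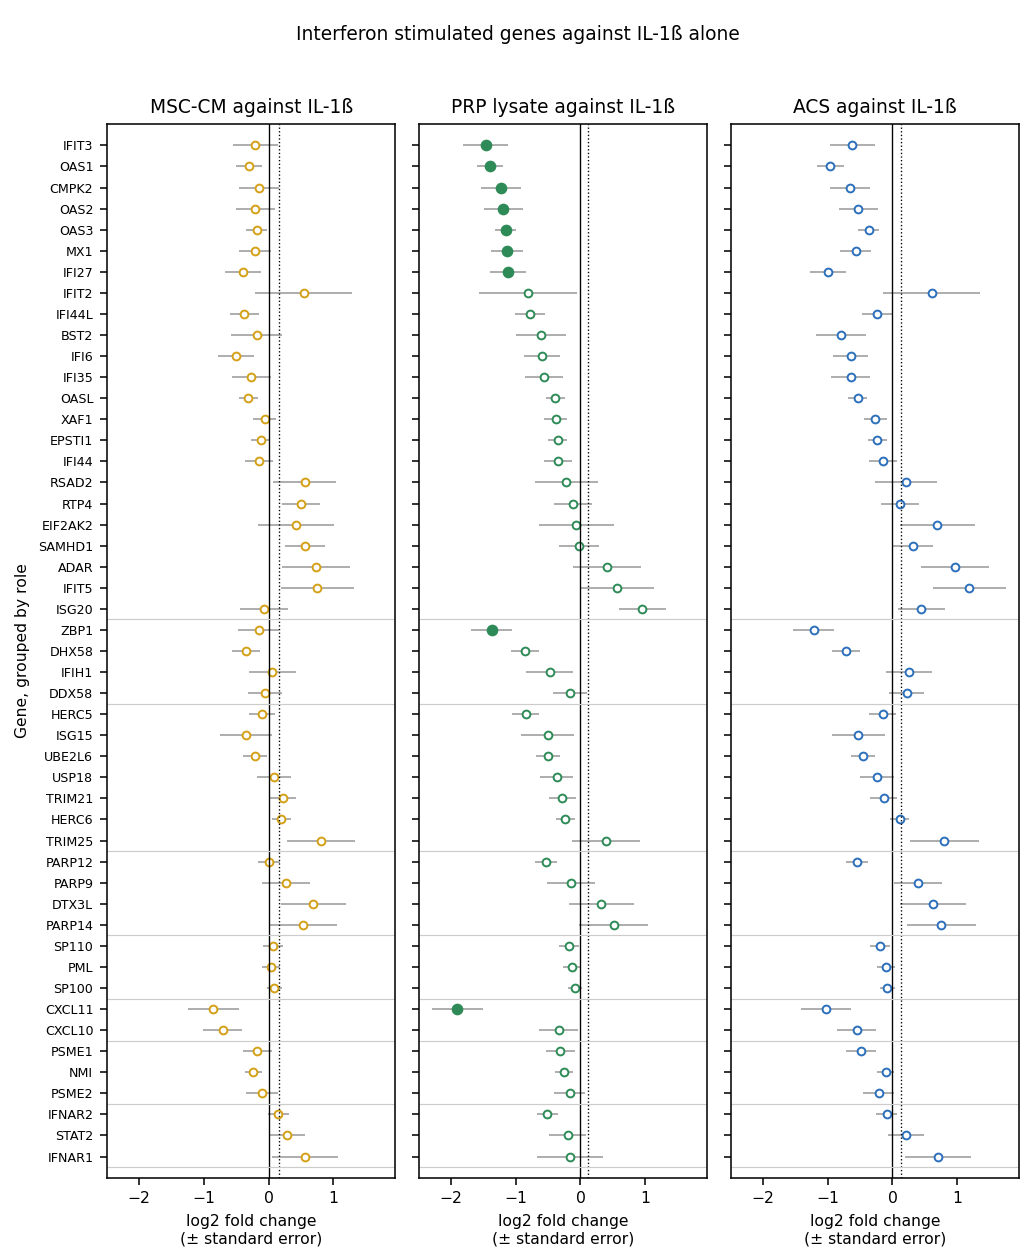
Log2 fold change from limma (bars, 1 standard error) of the 49 interferon stimulated genes with each OT against IL-1ß alone. Genes are grouped by role and sorted by the PRP lysate values, as in the map of levels. Filled symbols mark called genes, with a solid line at 0 and a dotted line at the median of all genes. Filled symbols appear with PRP lysate alone, 9 in all, and most antiviral effectors lie left of the dotted line with PRP lysate.

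The CXCR3 ligands CXCL10 (IP-10) and CXCL11, which attract T cells and NK cells, were highest in untreated macrophages. CXCL10 was at 175, 165 and 98.8 CPM untreated and at 67.4, 48.2 and 32.7 CPM with IL-1ß. No IL-1ß library reached the untreated range, and the mean with IL-1ß was 33.8% of the untreated mean (-1.56, SE 0.303, adjusted p = 0.0495). This call was at the threshold and was lost whichever 1 of these 6 libraries was left out (-1.82 to -1.30), and was made without the 3 libraries apart. With the OTs CXCL10 was at 26.0, 29.5 and 30.7 CPM (MSC-CM), 24.3, 54.1 and 39.5 CPM (PRP lysate) and 34.2, 31.4 and 30.5 CPM (ACS). MSC-CM was below every IL-1ß library without passing the adjustment (-0.71, SE 0.303, adjusted p = 0.705), and PRP lysate (-0.34, adjusted p = 0.620) and ACS (-0.55, adjusted p = 0.284) overlapped it.

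CXCL11 was at 100.3, 65.6 and 55.7 CPM untreated, 26.7, 29.7 and 24.8 CPM with IL-1ß, 13.6, 12.2 and 18.2 CPM with MSC-CM, 2.42, 13.3 and 7.67 CPM with PRP lysate, and 12.9, 12.3 and 13.0 CPM with ACS. These groups formed 3 steps without overlap, untreated above IL-1ß and IL-1ß above each OT. The step from untreated macrophages to IL-1ß did not pass the adjustment (-1.38, SE 0.392, adjusted p = 0.172). From IL-1ß to PRP lysate CXCL11 fell by 1.90 (SE 0.392, adjusted p = 0.0129), a call lost without IL-1ß replicate 2 (-2.36 to -1.33), while ACS (-1.02, adjusted p = 0.180) and MSC-CM (-0.85, adjusted p = 0.705) did not pass. CXCL11 lies 28.6 kb from CXCL10 on chromosome 3 (61858455 to 61860509), and both overlap the annotated span of ART3.

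All 3 OT groups had less of both chemokines than untreated macrophages. For CXCL10 the log2 fold change was -2.27 with MSC-CM (SE 0.303, adjusted p = 0.00602), -1.90 with PRP lysate (adjusted p = 0.00439) and -2.11 with ACS (adjusted p = 0.0123). CXCL11 gave -2.23 (SE 0.392, adjusted p = 0.0202), -3.27 (adjusted p = 0.000667) and -2.40 (adjusted p = 0.0218). Of the 49 genes, these 2 were all that was called with MSC-CM against untreated macrophages, where 0.181% of all genes were called lower and 0.662% in either direction, and with ACS, where the shares were 0.224% and 0.37%. With MSC-CM the count fell to 1 (CXCL10) without any 1 of the 6 libraries, untreated replicates 1, 2 and 3 and MSC-CM replicates 1, 2 and 3. With ACS it fell to 0 without untreated replicate 1 or 2 or ACS replicate 1, 2 or 3. Both counts were 2 without the 3 libraries that lay apart. PRP lysate against untreated macrophages gave 6 called genes (1.33% of all genes lower, 1.6% in either direction), namely these 2 with OAS1, OAS2, OAS3 and IFIT3. That count became 3 without untreated replicate 1 and 5 without the 3 libraries that lay apart, where OAS1 and OAS2 were lost and IFIT2 was gained. Fitted on the untreated and PRP lysate libraries alone it was 0.

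The receptor chains and STAT2 were not called. IFNAR1 was at 160.0, 106 and 32.9 CPM with IL-1ß, 37.2, 108 and 100.5 CPM with PRP lysate, 116, 140.1 and 153 CPM with ACS, 88.5, 129 and 160.5 CPM with MSC-CM, and 97.4, 153 and 95.4 CPM untreated. Its 2 low values came from the libraries that lay apart, and all groups overlapped except that no PRP lysate library reached the ACS range. IFNAR2 was at 139.5, 125 and 94.0 CPM with IL-1ß, 119, 128 and 147 CPM with MSC-CM, 76.5, 85.8 and 84.8 CPM with PRP lysate, 96.7, 108 and 129 CPM with ACS, and 100.5, 119 and 101 CPM untreated. PRP lysate was the lowest group, without overlap with any other, at -0.51 against IL-1ß (SE 0.161, adjusted p = 0.0955). STAT2 was at 134, 120.4 and 53.2 CPM with IL-1ß, 61.3, 94.4 and 97.9 CPM with PRP lysate, 119.6, 105 and 106 CPM with ACS, 102, 127 and 121 CPM with MSC-CM, and 107, 113 and 103 CPM untreated, with a log2 fold change of -0.20 with PRP lysate (SE 0.282, adjusted p = 0.750).

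The OTs were also compared with each other. PRP lysate against MSC-CM gave 2 called genes, both lower, where 1.81% of all genes were called lower and 2.61% in either direction. They were OAS1 (-1.10, SE 0.205, adjusted p = 0.00757) and ZBP1 (-1.22, SE 0.311, adjusted p = 0.0452), and OAS3 (-0.97, adjusted p = 0.00418) and IFNAR2 (-0.66, adjusted p = 0.0357) passed the adjusted p below 2-fold. The ZBP1 call was lost in 11 of 16 alternatives and the OAS1 call in 4 of 16. edgeR called OAS1 alone, and DESeq2 called OAS1 and IFIT3. IFIT3 (-1.26, adjusted p = 0.0629) and CMPK2 (-1.07, adjusted p = 0.0735) were lower in every library without passing. The same-numbered libraries of MSC-CM and PRP lysate deviated together, but replicate 1 lay apart in both, and no label says that they were paired. With the replicate number as a block over those 6 libraries 4 genes were called (OAS1, ZBP1 and IFIT3 lower, ISG20 higher), where that fit called 3.49% of all genes. The same 6 libraries without the block gave 0, and a block over the 12 libraries with numbers gave 0. The count without the block was 1 without any 1 of MSC-CM replicates 1, 2 and 3 or PRP lysate replicate 1, 5 without PRP lysate replicate 3, 3 without PRP lysate replicate 2, and 1 without the 3 libraries apart.

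ACS against MSC-CM gave 0 called genes (1.23% of all genes were called), with 4 at an unadjusted p of at most 0.05, all lower with ACS, where 8.8% of all genes were lower at that threshold. These were ZBP1 (-1.06, adjusted p = 0.120), OAS1 (-0.66, adjusted p = 0.145), IFI27 (-0.61, adjusted p = 0.357) and PARP12 (-0.56, adjusted p = 0.133). ACS against PRP lysate gave 0 called genes as well (0.0946% of all genes were called), with 10 at the unadjusted p, all higher with ACS, where 3.39% of all genes were higher at that threshold. In both comparisons edgeR and DESeq2 also called 0, and without the 3 libraries that lay apart limma called 1 gene (ZBP1) with ACS against MSC-CM and 0 with ACS against PRP lysate. The largest of the 10 with groups apart were IFIT3 (0.85, adjusted p = 0.842), OAS3 (0.79), HERC5 (0.69) and OAS2 (0.67, adjusted p = 0.842), so a difference between PRP lysate and ACS in these genes was not shown at this number of libraries.

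Other genes of the interferon pathway moved in both directions with PRP lysate and ACS. Of 30 pathway genes tested that are no members of the list, 2 were lower and 2 were higher against IL-1ß (with 3.09% of all genes called with PRP lysate and 2.21% with ACS), and they were the same 4 genes with both OTs, which share the IL-1ß libraries. IRF7, the factor that amplifies interferon production, was at 95.0, 99.1 and 159 CPM with IL-1ß, 34.0, 31.2 and 42.8 CPM with PRP lysate, and 48.1, 39.8 and 52.4 CPM with ACS. No PRP lysate or ACS library came near the IL-1ß range, and IRF7 fell by 1.65 with PRP lysate (SE 0.198, adjusted p = 0.000342) and by 1.28 with ACS (SE 0.198, adjusted p = 0.00434). TLR7, an endosomal receptor for RNA, was at 3.31, 2.01 and 3.22 CPM with IL-1ß and below 1 CPM in all PRP lysate and ACS libraries (-1.49, adjusted p = 0.00237; -1.08, adjusted p = 0.0254).

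IRF8, a factor of the monocyte lineage, was at 308, 289 and 220.2 CPM with IL-1ß, 697, 698 and 517 CPM with PRP lysate, and 610.5, 706 and 786 CPM with ACS, higher in every library of both OTs (1.22, adjusted p = 0.00271; 1.37, adjusted p = 0.00317). IFNG, the type II interferon, was at 10.4, 9.63 and 7.71 CPM with IL-1ß, 30.1, 36.1 and 43.0 CPM with PRP lysate, and 22.0, 16.7 and 22.3 CPM with ACS, again without overlap (1.87, adjusted p = 0.000539; 1.06, adjusted p = 0.0291). MSC-CM left IRF7 at 77.5, 66.8 and 74.8 CPM, below every IL-1ß library without passing the adjustment (-0.64, adjusted p = 0.705), and 0 of the 30 pathway genes were called with it by limma (1 at the unadjusted p), with IRF8 at 0.13 (adjusted p = 0.816) and IFNG at 0.02 (adjusted p = 0.977). Of 16 genes known mainly as targets of type II interferon, 0 were called with PRP lysate, with a median of 0.21, and 1 (ICAM1, higher) was called with ACS, with a median of 0.33. At an unadjusted p of at most 0.05 there were 6 with PRP lysate, all higher but IDO1, and 9 with ACS, all higher but IDO1 and PSMB8, where 17.5% and 20.5% of all genes passed that threshold in either direction. IFNB1, which encodes interferon beta, was at 0 or below 0.21 CPM in every library.

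**Figure D4:**
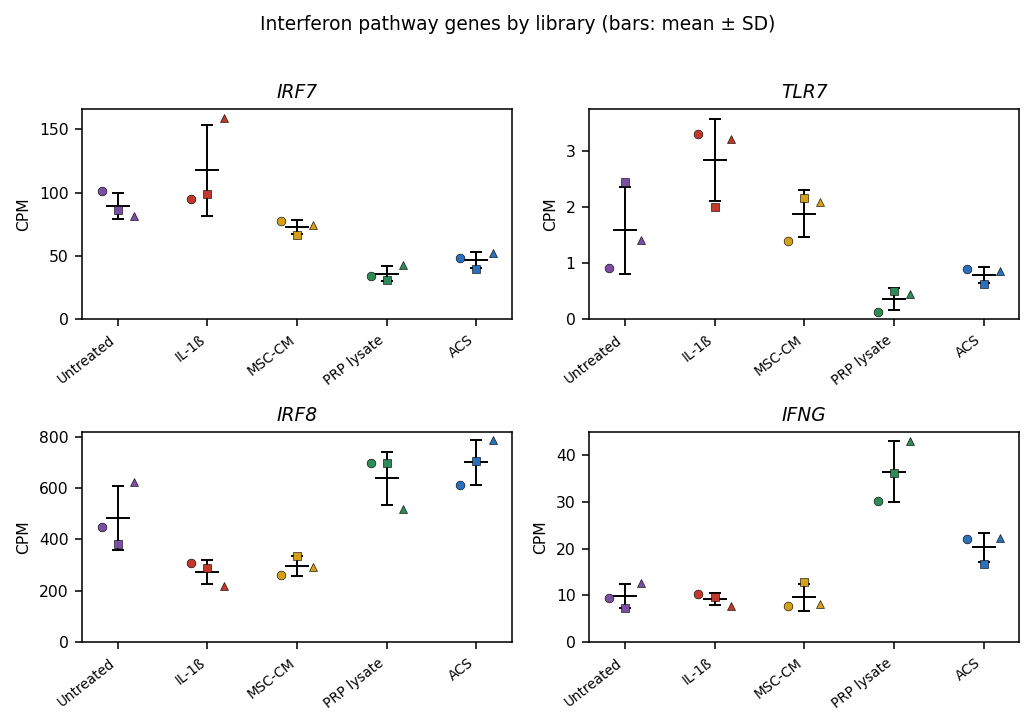
CPM of 4 genes of the interferon pathway that are not on the list, in each of the 3 libraries of each condition, with the mean and 1 SD (bars). By their means IRF7 and TLR7 are lowest, and IRF8 and IFNG highest, with PRP lysate and ACS, although 1 untreated library reaches into the IRF8 range of both.

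Markers of other cells were measured beside these values. The summed NK cell markers (5 of 5 measured) were 193 to 434 CPM with IL-1ß, 260 to 720 CPM with PRP lysate and 199 to 364 CPM with ACS, and the T cell sums given above overlapped between the same groups. The summed macrophage markers (10 of 10 measured) were 5736 to 8779 CPM with IL-1ß, 3614 to 6399 CPM with PRP lysate and 5694 to 7366 CPM with ACS. Of these 10, CD163, AIF1 and LYZ were called lower with PRP lysate and CD163 and AIF1 with ACS, and the median log2 fold change over the 10 was -0.85 with PRP lysate (9 below 0) and -0.47 with ACS (7 below 0). CD163, a scavenger receptor, had the lowest value with both, -5.50 with PRP lysate and -3.12 with ACS. FLT3, the one marker of conventional dendritic cells that could be tested, was at 4.59, 3.76 and 5.15 CPM with IL-1ß and 1.45, 0.909 and 0.493 CPM with PRP lysate (-1.52, adjusted p = 0.000718). CSF3R, the one neutrophil marker tested, was higher in every library with PRP lysate (0.62, adjusted p = 0.0680) and with ACS (0.93, adjusted p = 0.0143, under 2-fold) than with IL-1ß. The 4 B cell markers tested were all below 0 with PRP lysate, with a median of -0.59 and none called. Against untreated macrophages all 10 macrophage markers were below 0 with PRP lysate, with a median of -0.85 and CSF1R and CD163 called lower, and PPBP, a platelet chemokine, was called higher (3.11, adjusted p = 0.00109). Against MSC-CM, PRP lysate had CD163, AIF1 and FLT3 called lower and PPBP called higher (2.06, adjusted p = 0.0103). With ACS against untreated macrophages all 10 macrophage markers were below 0 as well, with a median of -0.48 and 0 called by limma (4 at the unadjusted p), and PPBP was called higher (2.07). IL-1ß against untreated macrophages had FLT3 (1.06) and PPBP (2.12) called higher. All 6 T cell markers were above 0 in that comparison, with a median of 0.65 and none called. With MSC-CM against untreated macrophages all 6 T cell markers were higher without overlap, with a median of 0.83 and none called. The part of these markers in the changes of the interferon stimulated genes was not tested. Of the markers of plasmacytoid dendritic cells, the main producers of type I interferon in blood, only TCF4 and PACSIN1 were measured, and PACSIN1 was at or near 0. The 5 stromal markers measured summed to at most 2.92 CPM in any library.

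The interferon stimulated genes were also set against gene span in the libraries that lay apart. In IL-1ß replicate 3, 23 of the 25 genes with a span of at least 19.6 kb were lower than in replicates 1 and 2, with a median log2 difference of -0.49, while 13 of the 24 shorter ones were higher, with a median of 0.16. Across the 49 genes Pearson's r between the log of span and that difference was -0.29, and across all 11628 genes it was -0.42, as a description of 1 library against 2 others from the same condition. ISG15, which spans 0.957 kb, was higher by 1.50 in IL-1ß replicate 3, and IFIT2, which spans 4.84 kb, was lower by 2.46, so short genes went both ways. In PRP lysate replicate 1, 19 of the 25 longer genes were lower than in replicates 2 and 3, with a median of -0.66, and r across the 49 genes was -0.16. In MSC-CM replicate 1, 21 of the 25 longer genes were lower than in replicates 2 and 3, with a median of -0.20, and r was -0.38. Among libraries that did not lie apart, untreated replicate 1 gave r = -0.37 across the 49 genes (-0.20 across all genes) but had 11 of the 25 longer genes lower, with a median of 0.04, and ACS replicate 1 gave r = -0.25 (-0.08 across all genes) with 14 of 25 lower and a median of -0.02. With the trend on gene span removed from all libraries, a setting chosen after the data were seen, 9 genes were called lower with PRP lysate against IL-1ß, the same 9 as without it. The same setting ended the CXCL10 call of IL-1ß against untreated macrophages and both chemokine calls of ACS against untreated macrophages.

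**Figure D5:**
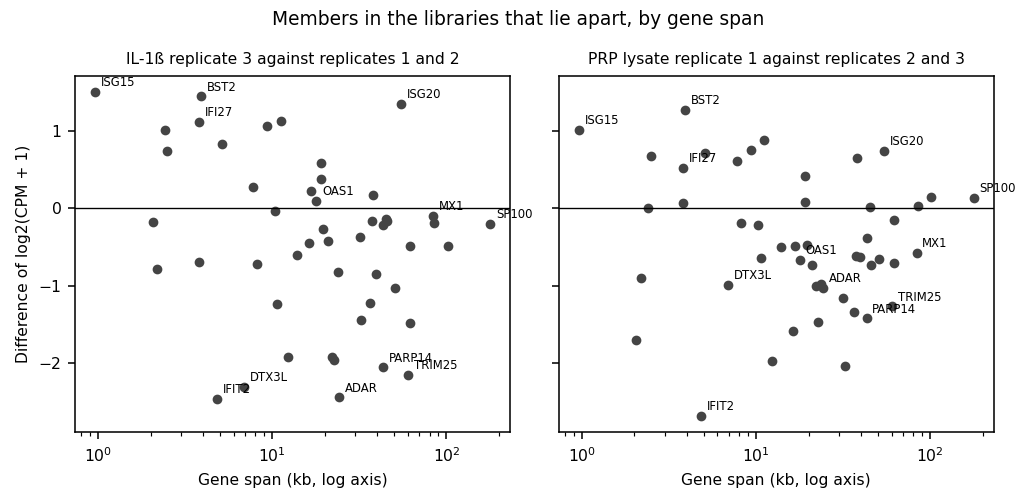
Difference in log2(CPM + 1) between the library that lay apart and the mean of the other 2 libraries of its condition, against the span of the gene in kb (log axis), for the 49 interferon stimulated genes, with IL-1ß replicate 3 on the left and PRP lysate replicate 1 on the right. Longer genes lie mostly below 0 in both panels, and differences range from -2.46 to 1.50 on the left and from -2.68 to 1.27 on the right.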

How the data were processed

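RNA of equine monocyte derived macrophages was sequenced in 15 libraries, 3 for each of 5 conditions. The authors trimmed reads with cutadapt, aligned them to EquCab3.0 with STAR 2.7.3 and counted them with HTSeq in Partek, and deposited CPM, reads scaled to a fixed library total, for 16932 genes. The strand setting of the counting is not given in the sources used here. Columns were matched to samples by name, and 0 columns were left unmatched. CPM values were whole multiples of 1 read (100.0% of values up to 2000 reads, tolerance 0.1), which gave the depths and the recovered reads.

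The main test was limma 3.58.1 with an intensity trend on log2(CPM + 1), with all 5 conditions in 1 fit, on the 11628 genes that averaged 1 CPM or more. Fold changes on this scale understate those of low genes. P-values were adjusted by Benjamini-Hochberg over all genes tested, separately for each comparison. The scripts were tested on simulated data. Alternatives were a pseudocount of 0.1, no filter, no fold threshold, RLE size factors, edgeR 4.0.16 and DESeq2 1.42.0 on the recovered reads, only the 2 groups compared, the replicate number as a block, and leaving out libraries; removal of the gene span trend and a block over MSC-CM and PRP lysate alone were added after the data were seen. R 4.3.3, Python 3.11.15 and matplotlib 3.10.9 were used.

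Values in every library are given for the genes called in a comparison, up to the 8 with the largest change, or, where fewer than 4 were called, for up to 4 genes whose groups did not overlap at an unadjusted p of at most 0.05. ISG15, MX1, IFIT3, RSAD2, CXCL10, STAT2, IFNAR1 and IFNAR2 are given whatever their result, and IFI27, BST2, ISG20, ADAR, IFIT2 and IFIT5 were added after their values were seen, as were single pathway genes. The genes and the lists were chosen with earlier results of these data known. MSC-CM and PRP lysate libraries with the same number deviated together in all 3 pairs (r = 0.255 to 0.635), and a block on the number was fitted for those 2 groups. No label says what the numbers share. The 3 values of r are not independent, since deviations from a group mean cancel out. Replicate 1 lay apart in both groups, so these values cannot decide whether the libraries were paired. No gene sequence is printed, and positions are those deposited.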

Additional observations from a re-analysis of the deposited data

How the results depend on the processing

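The alternatives changed how many of the 49 genes were called more often than the sign of a value. Shares of all genes are given for the main fit and for the block over MSC-CM and PRP lysate alone. Counts under the other alternatives cannot be set against such a share. PRP lysate against IL-1ß (9 called) gave 0 with only the 2 groups fitted and 2 with the replicate block (4 for the same 12 libraries, which leave out ACS, without it). The count was 6 with no filter, where CMPK2, IFI27 and OAS2 were lost, and 8 with RLE size factors, where IFI27 was lost. When 1 library was left out it was 3 to 8. IL-1ß against untreated macrophages (1) gave 0 with a pseudocount of 0.1, no filter, only the 2 groups, the replicate block or the span trend removed, 2 with DESeq2 and without the 3 libraries apart, and 0 in all fits without 1 library. ACS against IL-1ß (0) gave 1 with no fold threshold, RLE size factors, edgeR, the span trend removed or without the 3 libraries apart, 3 with DESeq2 and 0 to 2 without 1 library. Against untreated macrophages, MSC-CM (2) gave 0 with the replicate block and 1 without any 1 library, PRP lysate (6) gave 0 with only the 2 groups, 3 with the replicate block and 3 to 8 without 1 library, and ACS (2) gave 0 with the span trend removed and 0 to 2 without 1 library. PRP lysate against MSC-CM (2) gave 4 with no fold threshold, 1 with no filter, RLE size factors, edgeR or without the 3 libraries apart, 0 with only the 2 groups or with the block over 12 libraries, 4 with the block over those 6 libraries, and 1 to 5 without 1 library. ACS against MSC-CM (0) gave 1 with only the 2 groups and 1 without the 3 libraries apart, and MSC-CM against IL-1ß and ACS against PRP lysate gave 0 under every alternative run. Fits with only 2 groups or fewer libraries have a less certain spread by construction, and otherwise the cause was not tested. The 12 libraries without the block gave 0 for IL-1ß, 1 for MSC-CM and 5 for PRP lysate against untreated macrophages and 1 for PRP lysate against MSC-CM. Outside MSC-CM and PRP lysate r between same-numbered libraries took both signs (-0.775 to 0.590 over 15 pairs), and the numbers there were taken to name libraries only. The ACS titles carry names in place of numbers, so no block was fitted for comparisons with ACS. Among 1075 alternatives for 73 values of named genes, 104 lost and 17 gained a call, 12 moved by more than the spread between replicates without a change of call, and the other 942 did none of these, though 34 of the 942, in 15 values that were not called, changed sign. The values of single genes were not tested for outliers, since each group held 3 libraries.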
